A study of Xenopus laevis with 60 samples.

Results

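Late blastula embryos of Xenopus laevis that had received morpholinos against pou5f3.3 and sox3 were compared with embryos of the same collection that had received a GFP morpholino. The libraries were taken by their labels, though with earlier results of these data known. They were 3 morphant and 3 GFP libraries of collection G, with 1 morphant and 1 GFP library of collection E used only to read directions. This makes 8 of the 60 libraries of the series. The series follows the start of transcription in wild-type embryos, with RNA of whole embryos depleted of ribosomal RNA and counted over exons and introns of each gene. Collection G morphants carried 40 ng pou5f3.3, 40 ng sox3 and 40 ng GFP morpholino, and their GFP controls 120 ng GFP morpholino. In collection E, morphants carried 40 ng of each specific morpholino and no GFP morpholino, against 80 ng GFP morpholino in the control. All were injected at stage 1 and collected at stage 9, 8 hours after fertilization, without cycloheximide. Each library holds 2 embryos, and the eggs of a collection came from 2 mothers and were pooled. The replicates are therefore sets of embryos of 1 experimental day. The p-values of the gene tests rest on the spread within groups over the 53 libraries of 1 fit, not on those of collection G alone. For collection G that is a spread between sets of embryos and not between days.

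The amphibian egg is loaded with RNA and protein by the mother, and the embryo's own genome is silent until the midblastula. Pou5f3 proteins are the amphibian homologs of OCT4, and Sox3 belongs to the SOXB1 family with SOX2; in vertebrate embryos proteins of both families bind enhancers together, open chromatin and hold cells in a pluripotent state. A morpholino blocks translation of its target mRNA, so the mRNA level of a target does not show how much protein was lost. Intron reads come from transcripts not yet spliced and so follow new transcription, also at genes whose exon signal is dominated by maternal mRNA.

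The 6 libraries of collection G held 11404369 to 16724504 exon counts and 502384 to 968578 intron counts, within the range of 6809284 to 25358689 exon counts over the series. Zygotic markers of the stage were present in both groups. For example, gs17.L ran from 170 to 208 TPM (an exon level scaled by transcript length and library depth) in morphants, against 124 to 150 TPM in GFP controls. mix1.L ran from 32.9 to 40.4 TPM in morphants and from 23.3 to 30.4 TPM in GFP controls. mix1.S, eomes.L and sia2.S also stood higher in every morphant library than in any control, for instance sia2.S at 3.42 to 5.85 TPM against 1.57 to 2.53 TPM. Not all zygotic markers were higher. foxi4.2.S ran from 21.6 to 26.1 TPM in morphants, against 39.3 to 52.9 TPM in GFP controls, and sia1.L was lower too. ventx2.1.L overlapped, at 26.8 to 40.1 TPM in morphants and 32.6 to 48.7 TPM in GFP controls. Among the markers, 13 of 13 zygotic, 5 of 5 germ plasm and 3 of 3 oocyte entries had counts in at least 1 of these libraries, and of 4 gastrula keratin entries 1, krt12.4.S, was at 0 in all 6. The germ plasm regulator dnd1.L stood at 306 to 319 TPM in morphants and 292 to 322 TPM in GFP controls. In whole embryos, fewer cells of a type and less RNA per cell cannot be told apart.

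mRNAs of the targeted genes did not reach the threshold for a call. pou5f3.3.L stood at 388, 396 and 399 TPM in morphants and at 391, 355 and 346 TPM in GFP controls. sox3.L stood at 311, 300 and 338 TPM in morphants, against 370, 330 and 309 TPM in GFP controls, and those ranges overlap. Among the relatives, the L copies of pou5f3.1 and pou5f3.2 moved upward without reaching the fold required. pou5f3.2.L stood at 139, 117 and 141 TPM in morphants and 112, 97.6 and 90.7 TPM in GFP controls, a log2 difference of 0.33 ± 0.09 (SE; adjusted p = 0.0064 by edgeR's quasi-likelihood test). pou5f3.1.L stood at 10.9, 9.94 and 13.2 TPM in morphants and 6.92, 5.56 and 5.32 TPM in GFP controls (log2 difference 0.85 ± 0.14, adjusted p = 4.4e-06). The S copies differed less by exons, by 0.26 at pou5f3.2.S (adjusted p = 0.037) and 0.46 at pou5f3.1.S (adjusted p = 0.12). sox2.L overlapped between the groups at 10.9, 11.1 and 12.9 TPM in morphants against 11.7, 8.69 and 14.7 TPM in GFP controls. The 2 copies of hes3, a zygotic gene of the same study, stayed at or under 0.677 TPM in every library of both groups, too low to read a difference.

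A gene was called when the log2 difference of its exon or intron counts was at least 1.5 in size and the p-value, adjusted over all entries by Benjamini-Hochberg, was under 0.05. Of 27602 genes tested, 940 (3.41%) were higher in morphants and 400 (1.45%) were lower, and no gene was called in both directions. Most calls rested on introns: among the higher genes 709 were called by introns and 343 by exons, with 112 called by both. Among the lower genes 288 were called by introns and 202 by exons, with 90 called by both. Morphants and GFP controls did not overlap at 318 of the 343 exon entries called higher and 190 of the 202 called lower, where 18.0% of all 27602 exon entries did not overlap. The same held for 683 of 709 intron entries called higher and 276 of 288 called lower, where 53.4% of the 9916 intron entries tested did not overlap.

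Introns as a whole stood higher in morphants. Their share of all exon and intron counts was 5.76%, 5.47% and 5.67% in morphants and 4.2%, 3.85% and 4.2% in GFP controls. Every morphant library lay above every control, with means of 5.64% ± 0.15 and 4.08% ± 0.20 (SD, n = 3 each), a difference of 1.55 percentage points (two-sided exact permutation test, p = 0.10, the smallest that 3 against 3 allows). In collection E the share was 7.14% in the morphant and 6.56% in the GFP control. Collection F, from another day, had 6.78% ± 0.52 in embryos with morpholinos against pou5f3.2, pou5f3.3 and sox3, 7.06% ± 0.15 in those with pou5f3.2 and pou5f3.3 morpholinos and 6.23% ± 0.15 in GFP controls (SD, n = 3 each), so that both groups of collection G lay below all of collection F. The median log2 difference over all tested intron entries was accordingly 0.51, and that over exon entries −0.09. Fitting introns with their own scale moved the median of all introns to 0.01, and the calls were then 541 higher and 507 lower, or 51.6% higher in place of 70.1%. Of the 940 higher genes 529 were still called higher and of the 400 lower genes 358 still lower. Whether RNA quality or a difference in developmental progress between the groups has a part in the intron level was not tested.

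**Figure D1:**
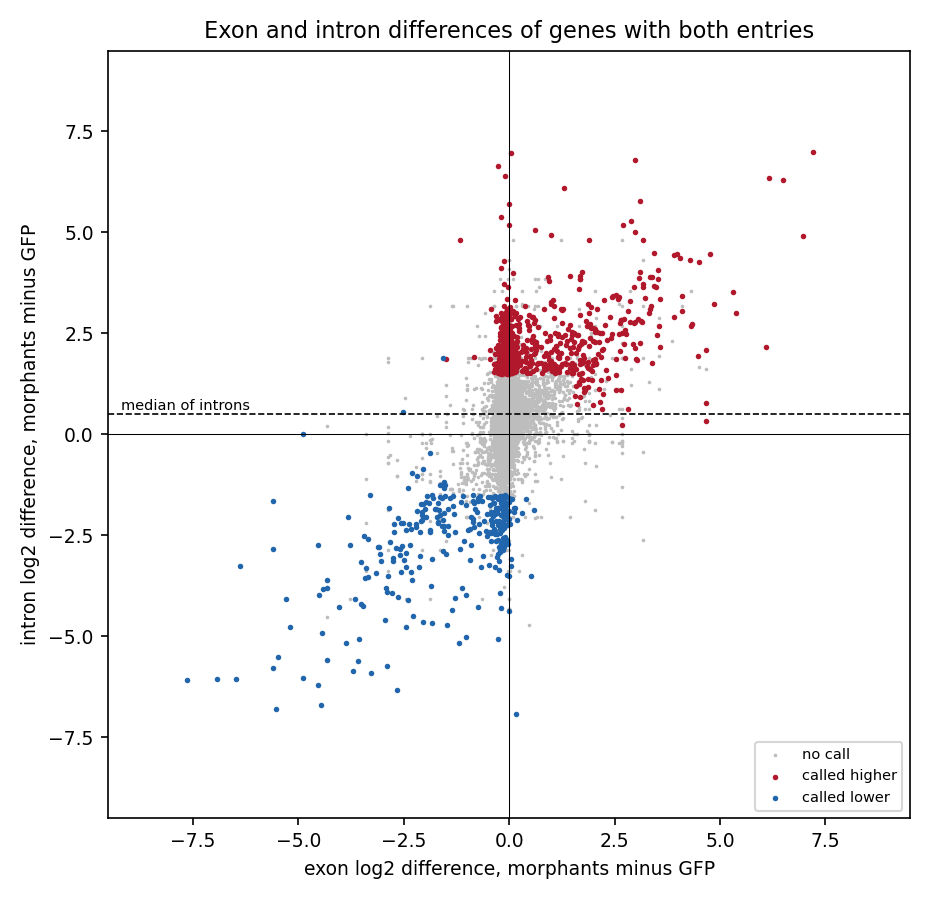
Each point is 1 of the 9916 genes with an exon and an intron entry, placed by its exon log2 difference (x axis) and its intron log2 difference (y axis), morphants minus GFP controls of collection G. Red points were called higher and blue points lower; the dashed line is the median of all introns at 0.51, and the column of red points above an exon difference of 0 holds genes called by introns only.

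Genes called by introns only are those whose exon entry was not called, a choice that itself limits their exon differences. The 597 genes higher by introns alone had a median intron log2 difference of 1.95 and a median exon log2 difference of −0.01, and at 454 of them the exon difference was under 0.5 in size. Their median level at stage 5, before the genome is active, was 17.2 TPM. The 198 genes lower by introns alone had medians of −2.14 for introns and −0.31 for exons, with 124 of them under 0.5 in size by exons, and a median stage 5 level of 9.22 TPM. sall4.L was one of these. It encodes a zinc finger factor that works with OCT4 in mammalian pluripotent cells, and its mRNA is maternal. Its introns stood at 0.097, 0.159 and 0.053 RPKM (intron counts scaled by intron length and library depth) in morphants, against 3.46, 3.34 and 3.5 RPKM in GFP controls. Its exons stood at 214, 203 and 223 TPM in morphants and 263, 243 and 228 TPM in GFP controls. The intron log2 difference was −5.07 ± 0.24 (adjusted p = 2.9e-22), whereas the exon difference was −0.27. The S copy moved the same way, with introns at 0.148, 0.202 and 0.227 RPKM in morphants and 0.722, 0.955 and 1.98 RPKM in GFP controls (log2 difference −2.72 ± 0.34, adjusted p = 1.6e-08). These 2 were the only calls among 20 tested genes of the pou5f3 and SOXB1 list, which also holds sall, klf4, foxh1 and vegt genes. Among all genes 1.45% were lower and 3.41% higher. The list has a median log2 difference of −0.04 for exons and 0.26 for introns. With introns scaled on their own, 3 members were lower and 0 higher.

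The largest falls were at genes nearly silent in morphants. hal.1.L, which encodes an enzyme of histidine breakdown and marks the animal ectoderm of frog embryos, stood at 0.904, 1.07 and 0.820 TPM in morphants and at 44.6, 36.0 and 41.6 TPM in GFP controls. Its groups were far apart, with a log2 difference of −5.48 ± 0.20 (adjusted p = 1.6e-27), and its introns fell as well (−5.51 ± 0.17). XB5961731.L, carried in the annotation under the provisional symbol ins, stood at 0.810, 0.410 and 1.28 TPM in morphants, against 38.4, 38.7 and 34.8 TPM in GFP controls (log2 difference −5.59 ± 0.27, adjusted p = 1.2e-23). nedd9.S, which encodes a docking protein of focal adhesions, stood at 0.125, 0.212 and 0.057 TPM in morphants and 5.35, 5.23 and 4.66 TPM in GFP controls (−5.19 ± 0.38, adjusted p = 5.7e-16). In each of these genes the single collection E libraries differed in the same direction, for instance at hal.1.L with 2.95 TPM in the morphant and 90.5 TPM in the control. Also among the 12 largest falls of genes with at least 5 TPM in controls were stx19.L (−4.04 ± 0.23), a syntaxin, rgcc.L (−2.89 ± 0.25), a cell cycle regulator, tiparp.S (−3.05 ± 0.35), an ADP-ribosyltransferase, adamts1.S (−2.67 ± 0.16), a secreted protease, and klf17.1.S (−2.65 ± 0.15), a Krüppel-like factor. By introns, fzd4.S, a Wnt receptor, fell to 0.075, 0.141 and 0.051 RPKM in morphants, against 2.13, 1.57 and 1.5 RPKM in GFP controls (−4.29 ± 0.31, adjusted p = 1.6e-16).

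Among the largest rises was myod1, the master regulator of muscle. myod1.S stood at 5.66, 6.00 and 7.22 TPM in morphants, against 0.272, 0.284 and 0 TPM in GFP controls, a log2 difference of 4.86 ± 0.50 (adjusted p = 2.4e-11). All morphant libraries lay above 5 TPM and all controls below 0.3 TPM. myod1.L, which has maternal mRNA, stood at 20.0, 24.5 and 24.4 TPM in morphants and 4.87, 7.25 and 5.34 TPM in GFP controls (1.92 ± 0.18, adjusted p = 3.1e-12). mab21l3.S, a member of the mab-21 family, was at 4.15, 5.94 and 5.04 TPM in morphants and 0.180, 0.375 and 0.305 TPM in GFP controls (4.06 ± 0.40, adjusted p = 9.8e-12). vgll4l.S, a cofactor of TEAD factors expressed in ectoderm, rose to 27.9, 21.5 and 27.7 TPM in morphants, against 1.41, 3.3 and 2.39 TPM in GFP controls (3.35 ± 0.27, adjusted p = 3.9e-14). Genes of epithelia were also in the group, namely the keratin genes krt7.S (2.94 ± 0.28) and krt7.L (2.04 ± 0.15) and the claudin gene cldn4.S (2.05 ± 0.13). id3.S, an inhibitor of bHLH factors that BMP induces, stood at 102, 100 and 111 TPM in morphants and 24.7, 25.3 and 24.5 TPM in GFP controls (2.00 ± 0.14, adjusted p = 6.1e-17). By introns, sox18.L, a SOXF factor gene, stood at 0.853, 1.42 and 1.37 RPKM in morphants and had no intron count in any GFP library, which places it at least 14.4-fold higher (against a floor of 3 counts over the group). adm.S, encoding adrenomedullin, and foxf1.S, a forkhead factor of lateral mesoderm, rose by introns as well (3.67 ± 0.46 and 3.17 ± 0.42).

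**Figure D2:**
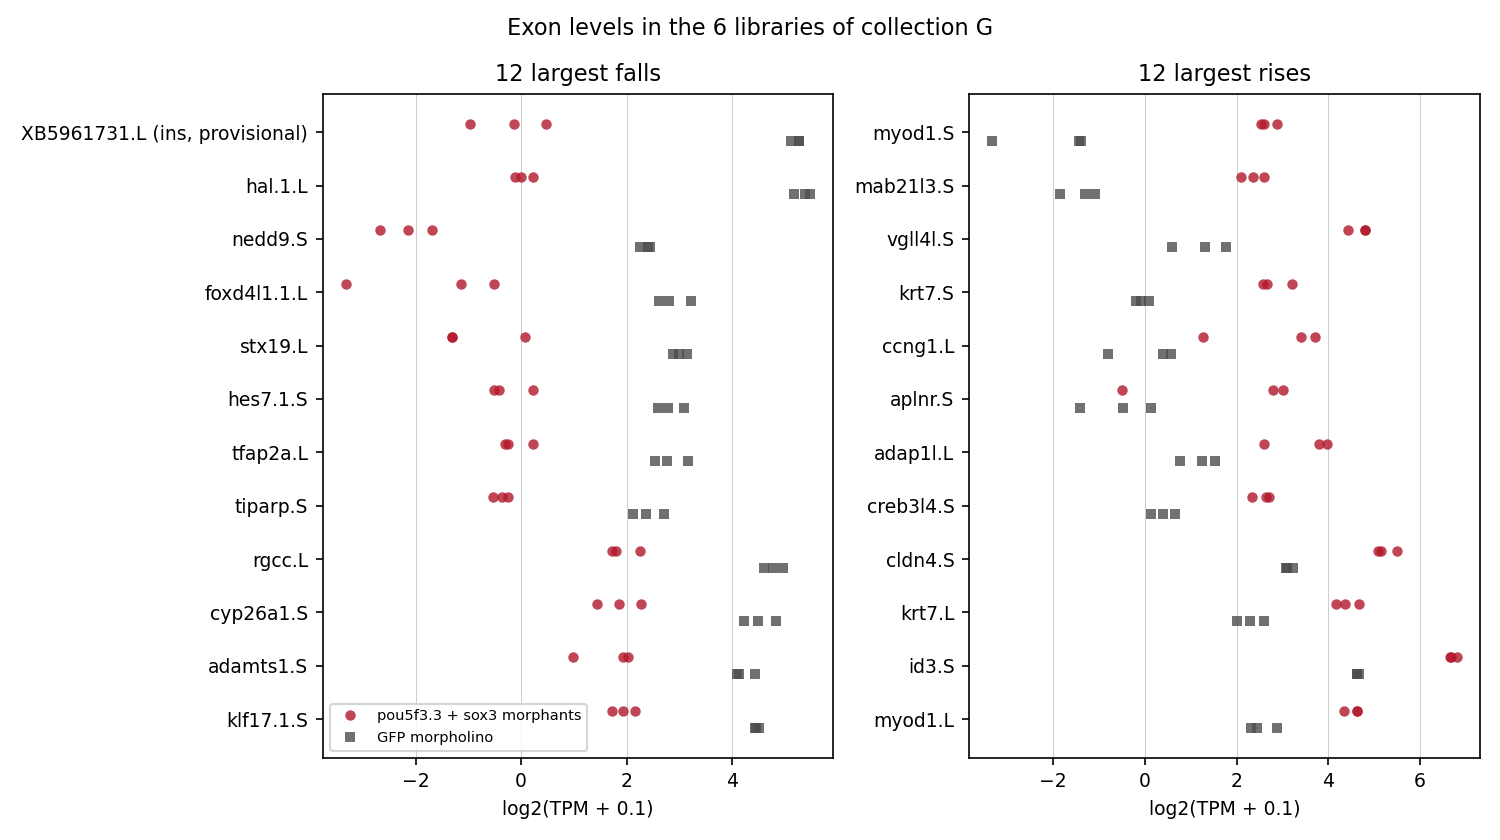
Exon levels of the 12 largest falls (left) and 12 largest rises (right) in collection G, as log2(TPM + 0.1). Each symbol is 1 library, red circles for the 3 morphant libraries and grey squares for the 3 GFP libraries below them; the groups stand apart in every gene shown but aplnr.S, where morphant replicate 2, at 0.609 TPM, lies among the controls.

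The 15 gene lists were written with earlier results of these data known, so their counts are not independent of these data. Of the 15 gene lists examined, that of the neural plate and its border had the most lower members. Of 61 tested 13 were lower in morphants, where 1.45% of all genes were, and 1 was higher, with a list median of −0.18 for exons and −0.22 for introns. Introns were tested for 34 of the 61, and 10 of the 13 were called by exons. The Foxd4l1 forkhead factors act early in the ectoderm to keep it competent for a neural fate. foxd4l1.1.L stood at 0, 0.357 and 0.599 TPM in morphants and 6.93, 6.00 and 9.29 TPM in GFP controls (−4.48 ± 0.43, adjusted p = 6.1e-12). foxd4l1.1.S and foxd4l1.2.L fell beside it. sox21.L, a SOXB2 factor, fell to 0.038, 0.052 and 0.139 TPM in morphants, against 1.67, 1.53 and 1.23 TPM in GFP controls (−4.31 ± 0.53, adjusted p = 6.6e-09), and sox21.S by −1.68 ± 0.47. Copies of hes7.1, irx1, neurog3 and zic4 were lower too. The exception was pcdh8.L, a protocadherin gene, with introns at 0.405, 0.484 and 0.609 RPKM in morphants and 0.203, 0.123 and 0.067 RPKM in GFP controls (1.77 ± 0.53, adjusted p = 0.015). That call was lost without GFP replicate 2, GFP replicate 3 or morphant replicate 3, and when introns were scaled on their own, where the list had 13 lower and 0 higher. The most abundant member, sox15.L, did not follow, at 160, 144 and 148 TPM in morphants and 150, 149 and 142 TPM in GFP controls.

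Ectodermal and epidermal genes split. Of 53 tested, 11 were lower and 6 higher (list median −0.14 for exons and 0.00 for introns), where 1.45% of all genes were lower and 3.41% higher. Introns were tested for 39 of the 53. Because the list was written with earlier results known, the count of lower members, hal.1.L, has1.S and lpar6 among them, is no independent finding. The lower set held both copies of tfap2a and tfap2c, which encode AP-2 factors of the ectoderm, klf2 and klf17 genes, and both copies of the receptor gene lpar6. tfap2a.L stood at 0.741, 0.708 and 1.06 TPM in morphants and 8.89, 5.72 and 6.69 TPM in GFP controls (−3.17 ± 0.25, adjusted p = 2.0e-14). has1.S, a hyaluronan synthase gene, stood at 16.3, 14.7 and 14.2 TPM in morphants and 71.1, 68.6 and 54.9 TPM in GFP controls (−2.18 ± 0.12, adjusted p = 5.7e-20). The higher set held distal-less homeobox genes and a keratin. dlx5.L stood at 3.58, 2.42 and 2.95 TPM in morphants, against 0.434, 0.151 and 0.327 TPM in GFP controls (3.12 ± 0.51, adjusted p = 4.6e-06). dlx2.S, dlx3.S and dlx5.S moved with it. krt8.1.L and krt8.1.S were called by introns (1.88 ± 0.18 and 1.72 ± 0.25). With introns scaled on their own, the list had 2 higher and 13 lower members, and without GFP replicate 3 it had 4 higher.

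Of 43 tested genes of ventral fate and BMP signalling, 9 were higher and 0 lower, where 3.41% of all genes were higher. Of the 9, 2 were called by exons. Introns were tested for 40 of the 43, but for only 9916 of all 27602 genes, so these shares are not matched. Among all intron entries 709 of 9916 were called higher. The list median was 0.04 for exons and 0.78 for introns. Id genes, known direct targets of BMP signalling, made up 5 of the 9. id3.L rose to 78.3, 78.3 and 89.8 TPM in morphants, against 26.3, 23.9 and 21.6 TPM in GFP controls (1.70 ± 0.10, adjusted p = 8.3e-20). id2.L had introns at 5.67, 5.57 and 6.1 RPKM in morphants and 1.25, 0.942 and 1.5 RPKM in GFP controls (2.12 ± 0.19), and id2.S and id4.S were called by introns as well. gata3.S, an ectodermal GATA factor gene, stood at 0.290, 0.220 and 0.186 RPKM in morphants and 0.024, 0.015 and 0.011 RPKM in GFP controls (3.61 ± 0.43, adjusted p = 4.3e-09). The homeobox gene msx1.L and the T-box genes tbx2.L and tbx3.S completed the set. The other members were not called, among them the ventx genes, homeobox targets of BMP, at every copy tested, bambi at both copies and szl at both copies (szl.S by exons at −0.65, adjusted p = 0.014). bmp4.L, a ligand gene, had an intron difference of −1.28 (adjusted p = 0.0042), short of the 1.5 of a call. id2.S, the most abundant member by exons, was level in mRNA at 206, 206 and 225 TPM in morphants and 217, 208 and 218 TPM in GFP controls. Scaling introns on their own left 6 members higher and 1 lower.

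Of 44 tested dorsal genes of the Spemann organizer and of early Wnt signalling, 5 were lower and 7 higher (list median −0.07 for exons and −0.18 for introns), and with introns scaled on their own 9 were lower and 2 higher. Among all genes 1.45% were lower and 3.41% higher, and introns were tested for 39 of the 44. The lower ones included secreted factors. dkk1.L, a Wnt antagonist, stood at 0.690, 0.699 and 1.25 TPM in morphants and 2.91, 4.47 and 4.33 TPM in GFP controls (−2.21 ± 0.40, adjusted p = 3.1e-05). admp.S, a BMP-like ligand of the organizer, stood at 2.49, 2.52 and 3.47 TPM in morphants and 7.73, 8.33 and 9.79 TPM in GFP controls (−1.68 ± 0.24, adjusted p = 3.1e-07). pnhd.S and both lhx5 copies fell with them, lhx5.S to 1.81, 3.45 and 2.57 TPM in morphants, against 16.9, 13.5 and 11.7 TPM in GFP controls (−2.44 ± 0.28). The higher ones were frzb.L, frzb.S, fst.L, hhex.L, otx1.S, sebox.L and sp5.S, all but frzb.L under 1 TPM or RPKM in every library. frzb.L, a secreted Wnt antagonist, had the highest exon level, at 1.57, 1.53 and 3.64 TPM in morphants and 0.621, 0.647 and 0.526 TPM in GFP controls (1.77 ± 0.50, adjusted p = 0.0085). Their number was 4 without GFP replicate 1, GFP replicate 3, morphant replicate 1 or morphant replicate 3.

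Outside the myogenic set, the counts of called mesoderm and endoderm genes lay near the shares among all genes, 3.41% higher and 1.45% lower. Introns were tested for 41 of the 53 mesendoderm genes and 21 of the 32 myogenic genes, larger parts than among all genes. In the mesendoderm and Nodal list, 2 of 53 were higher, both copies of the endodermal GATA factor gene gata6, and 1 was lower, tbxt.S, which encodes Brachyury. gata6.S stood at 0.722, 0.975 and 0.701 TPM in morphants and 0.137, 0.048 and 0 TPM in GFP controls (3.5 ± 0.62, adjusted p = 2.7e-05). tbxt.S stood at 0.697, 0.883 and 0.790 TPM in morphants and 2.71, 2.18 and 1.84 TPM in GFP controls (−1.55 ± 0.46, adjusted p = 0.015), just past the fold required and no longer past it without GFP replicate 1 or morphant replicate 1. The list median was 0.34 for exons, against −0.09 for all genes, and 0.61 for introns. The myogenic and paraxial list had 5 of 32 higher, namely both copies of myod1 and of the homeobox gene evx1, with mab21l3.S. evx1.L stood at 0.797, 0.493 and 0.421 TPM in morphants and 0, 0.246 and 0.200 TPM in GFP controls (1.82 ± 0.63, adjusted p = 0.039). Lower in this list were cdx1.S and fgf20.L, both by introns, and fgf20.L lost its call without GFP replicate 3 or morphant replicate 3. The list median was −0.06 for exons and 0 for introns, and with introns scaled on their own 4 members were higher and 3 lower. The other members were not called. Among them myf5 had exon log2 differences of −2.87 at the L copy and −2.44 at the S copy.

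**Figure D3:**
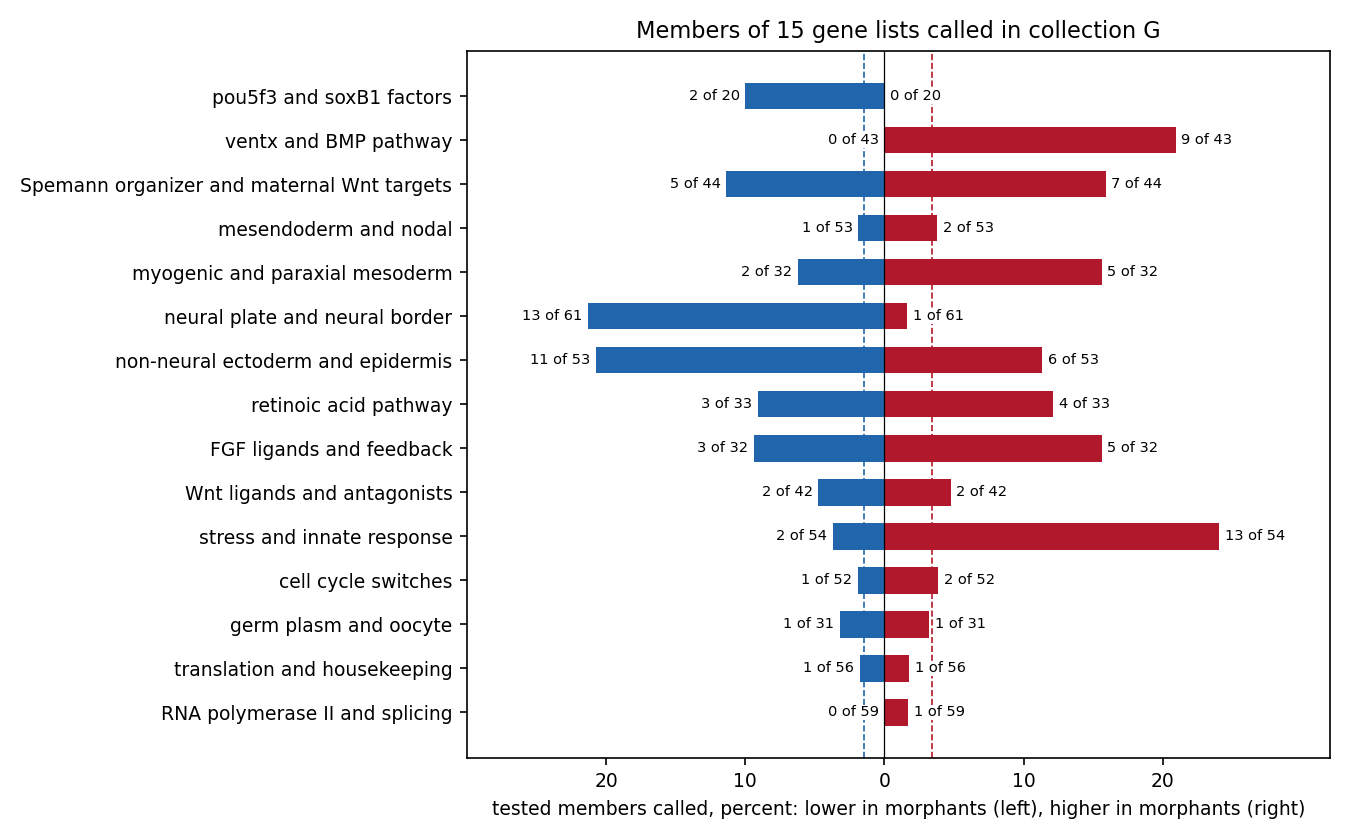
Share of tested members called in each of 15 gene lists, in percent, with bars to the left for genes lower in morphants and to the right for genes higher, and the counts beside them. Dashed lines mark the shares among all 27602 genes, 1.45% lower and 3.41% higher. Introns were tested for 9916 of these genes and for a larger part of most lists. The neural list (13 of 61 lower) and the stress list (13 of 54 higher) reach farthest.

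Of 32 tested genes of the FGF list, 3 were lower and 5 higher, where 1.45% of all genes were lower and 3.41% higher. Introns were tested for 27 of the 32, a larger part than among all genes. dusp1, a phosphatase that dampens MAP kinase signalling, fell at both copies: dusp1.S stood at 8.84, 15.7 and 11.3 TPM in morphants and 57.4, 41.1 and 56.0 TPM in GFP controls (−2.13 ± 0.13, adjusted p = 5.7e-19). dusp1.L fell by introns (−2.28 ± 0.25), as did spry2.S, an inhibitor of FGF signalling (−1.85 ± 0.22). The 5 higher genes (fgfr2.L, fgfr2.S, fos.L, fos.S and spred1.L) were called by introns and not by exons, and with introns scaled on their own 2 members were higher and 3 lower. Retinoic acid genes gave 3 lower and 4 higher of 33, and with introns scaled on their own 3 lower and 2 higher. cyp26a1.S, an enzyme that degrades retinoic acid, stood at 2.61, 3.52 and 4.73 TPM in morphants and 28.4, 18.5 and 22.5 TPM in GFP controls (−2.74 ± 0.21, adjusted p = 3.0e-15). The introns of cyp26a1.L and of the receptor gene rarg.S were lower as well (−2.14 ± 0.32 and −1.65 ± 0.11). aldh1a3.S, an enzyme that makes retinoic acid, had introns at 0.273, 0.288 and 0.173 RPKM in morphants, against 0.042, 0.029 and 0.021 RPKM in GFP controls (2.88 ± 0.30, adjusted p = 2.0e-11). Of 42 Wnt ligand and antagonist genes, both copies of sfrp2 were lower, and lef1.L and kremen2.S were higher, both at intron levels at or under 0.070 RPKM. With introns scaled on their own 2 of the Wnt genes were lower and 1 higher.

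Lists of general cell functions had small counts of calls, where 3.41% of all genes were higher and 1.45% lower. Counts this small do not set these lists apart from all genes. Introns were tested for most members of all but the germ plasm list. Cell cycle switches had 2 of 52 higher and 1 lower, germ plasm and oocyte genes 1 of 31 higher and 1 lower, translation and housekeeping genes 1 of 56 higher and 1 lower, and RNA polymerase II and splicing genes 1 of 59 higher and 0 lower. Their intron medians ran from 0.50 to 0.63, near the 0.51 of all introns. The lower cell cycle gene was cdc25b.S, a phosphatase that activates cyclin-dependent kinases, at 2.41, 2.55 and 3.04 TPM in morphants and 17.5, 14.3 and 15.4 TPM in GFP controls (−2.63 ± 0.15, adjusted p = 5.0e-20). tdrd7.L, a Tudor domain gene of germ granules, had introns at 0.656, 0.633 and 0.686 RPKM in morphants and 0.096, 0.124 and 0.055 RPKM in GFP controls (2.71 ± 0.18, adjusted p = 5.8e-17).

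The stress and innate response list, which also holds genes of the DNA damage response, had the highest share of higher members, 13 of 54, with 2 lower, and an intron median of 1.21 (0.71 with introns on their own scale). Among all genes 3.41% were higher and 1.45% lower. Introns were tested for 35 of the 54, a larger part than among all genes, so these shares are not matched. Of the 13, 3 were called by exons. Among the 13 were atf3.L, ccng1.L, ccng1.S, cdkn1a.L, cdkn1a.S, mdm2.L, mdm2.S, plk2.L, plk2.S, sesn1.L, sesn1.S and sesn2.S, most of them genes known to be induced by DNA damage. The 13 did not move evenly over the morphant libraries. Their summed intron level was 23.7, 9.44 and 19.9 RPKM in morphant replicates 1, 2 and 3, against 3.37, 3.88 and 3.09 RPKM in the GFP controls. cdkn1a.L, the cell cycle inhibitor p21, had introns at 2.42, 0.710 and 2.19 RPKM in morphants and 0.333, 0.326 and 0.290 RPKM in GFP controls (2.32 ± 0.25, adjusted p = 1.2e-10). mdm2.L, a ubiquitin ligase, had introns at 3.65, 0.953 and 2.99 RPKM in morphants and 0.376, 0.387 and 0.275 RPKM in GFP controls (2.67 ± 0.33, adjusted p = 6.6e-09). ccng1.L showed the pattern in mRNA, at 13.0, 2.29 and 10.4 TPM in morphants and 1.21, 1.39 and 0.478 TPM in GFP controls (2.86 ± 0.41, adjusted p = 4.0e-07). At these genes morphant replicates 1 and 3 were high, and replicate 2 lay between them and the controls.

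In collection E the introns of these 13 genes summed to 10.1 RPKM in the morphant and 9.08 RPKM in the GFP control, single libraries that allow no test. In collection F they summed to 4.56 to 11.4 RPKM in triple morphants, 3.90 to 5.13 RPKM in pou5f3.2 and pou5f3.3 morphants and 2.52 to 2.93 RPKM in GFP controls. The 13 genes were picked by their values in G. Over all 35 members with introns tested, the list summed to 74.2, 56.9 and 78.3 RPKM in morphants of collection G and to 44.3, 45.5 and 46.1 RPKM in GFP controls. In collection E that sum was 85.4 RPKM in the morphant and 90.4 RPKM in the GFP control. In collection F it was 56.4 to 78.4 RPKM in triple morphants and 66.7 to 81.0 RPKM in pou5f3.2 and pou5f3.3 morphants. Both overlapped the GFP controls of F, at 60.3 to 70.9 RPKM. With introns scaled on their own the count of higher members was 7, and over the fits without 1 library it was 11 to 15. Genes outside the list had this profile over the libraries too: aplnr.S, the apelin receptor gene, stood at 8.01, 0.609 and 6.81 TPM in morphants and 0.623, 0.278 and 1.01 TPM in GFP controls (2.80 ± 0.54, adjusted p = 7.6e-05). crabp2.L, a retinoic acid binding protein, stood at 2.77, 0.431 and 2.80 TPM in morphants and 0, 0 and 0.107 TPM in GFP controls (5.32 ± 0.96, adjusted p = 3.0e-05). Morphant replicate 2 lay within the range of the controls at 14 exon and 17 intron entries called higher, against 6 and 3 for replicate 1 and 7 and 6 for replicate 3. The part of cell stress or of 1 set of embryos in these values was not tested.

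**Figure D4:**
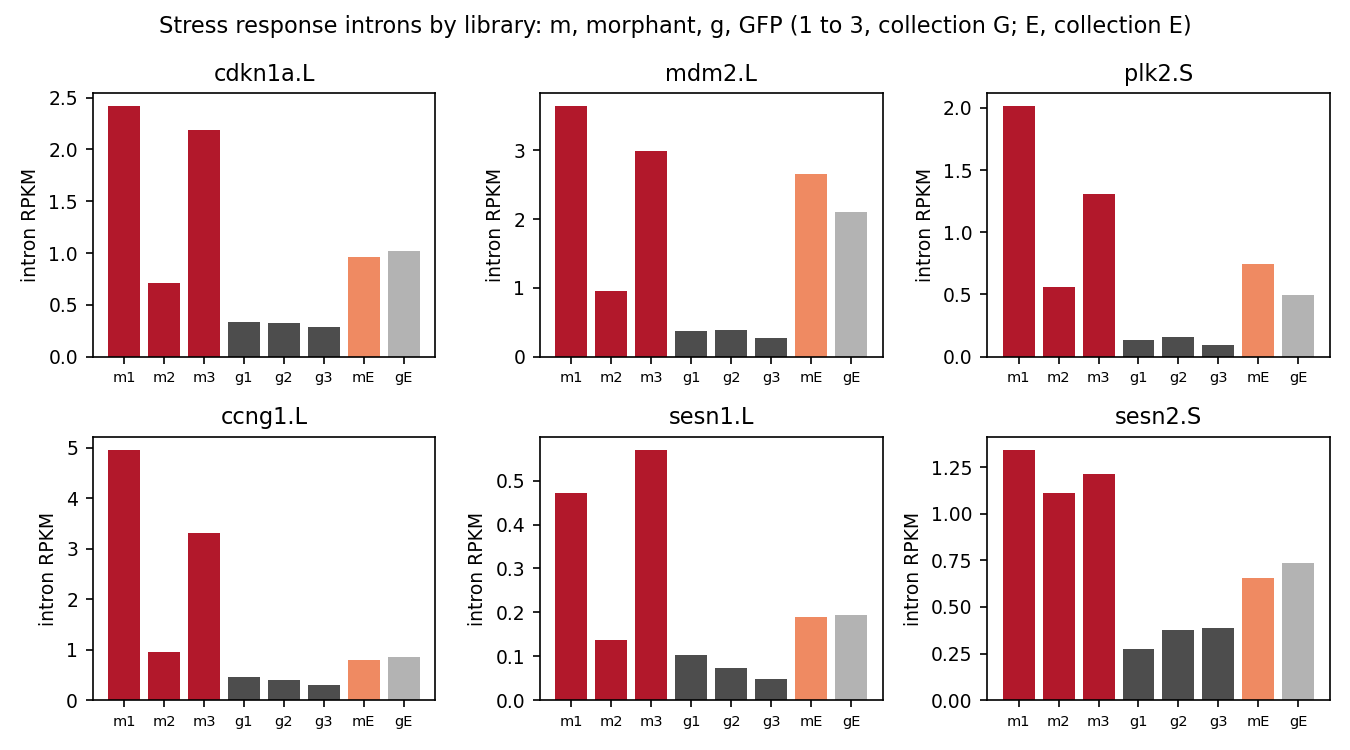
Intron levels (RPKM, bars from 0) of 6 genes of the stress and innate response list in the libraries of collection G (m1 to m3, morphants; g1 to g3, GFP controls) and of collection E (mE, gE). Morphant replicates 1 and 3 stand highest, for instance 2.42 and 2.19 RPKM at cdkn1a.L, with replicate 2 at 0.710 RPKM.

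Genes that the embryo switches on were called more often than others. The classes below were not matched for intron entries, which were tested at 9916 of 27602 genes. How far that adds to their shares was not tested. Activated genes were those higher at stage 9 without than with triptolide, an inhibitor of transcription, in both collections that used it, and higher at stage 9 than at stage 5. They numbered 6700 (24.3% of those tested). Of the activated genes, 476 were higher in morphants (7.1%) and 303 lower (4.52%), against 464 (2.22%) and 97 (0.464%) of 20902 other genes. The share was highest where no maternal mRNA was present: of 1424 activated genes under 1 TPM at stage 5, 179 were higher (12.6%) and 171 lower (12%). Of 5276 activated genes with maternal mRNA, 297 were higher (5.63%) and 132 lower (2.50%). Genes of the first wave, which are also activated when cycloheximide stops new protein, numbered 3199 (11.6%), with 270 higher (8.44%) and 174 lower (5.44%). Seen from the calls, 50.6% of higher and 75.8% of lower genes were activated.

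The called genes were also read against the normal time course. Of the 940 higher genes, 479 (51.0%) were higher at stage 10.5 than at stage 9, against 25.7% of all genes, and 74 (7.87%) were lower, against 14%. Of the 400 lower genes, 173 (43.3%) were higher and 76 (19.0%) lower at stage 10.5. Of the same 400, 312 (78.0%) were higher at stage 9 than at stage 8, as were 480 (51.1%) of the higher genes, against 26.7% of all genes. krt7.S, for instance, stood at 589 TPM at stage 10.5, and tfap2a.L at 156 TPM, so genes that normally increase later lie in both directions. How far a difference in stage between the groups adds to the calls was not tested. These shares, too, were not matched for intron entries.

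The 2 subgenomes of this allotetraploid frog carry L and S copies of most genes, and the ratio of L to S counts was compared within libraries. Of 5546 pairs tested, 40 (0.721%) changed their ratio by at least 1 log2 unit, 23 toward L and 17 toward S. At rgcc the L copy, with a mean of 5.73 TPM at stage 5, stood at 3.21, 4.69 and 3.39 TPM in morphants and 31.1, 24.3 and 27.4 TPM in GFP controls. The S copy, with a mean of 223 TPM at stage 5, stood at 193, 208 and 174 TPM in morphants and 152, 168 and 176 TPM in GFP controls. The log2 ratio of L to S was −5.82, −5.44 and −5.60 in morphants and −2.31, −2.80 and −2.70 in GFP controls, a change of −3.02 ± 0.16 (limma, adjusted p = 2.2e-04). At sema3f, a secreted guidance factor, the ratio was −7.73, −7.21 and −6.82 in morphants and −3.12, −3.08 and −2.92 in GFP controls (change −4.21 ± 0.25, adjusted p = 3.6e-04). sema3f.L stood at 0, 0.017 and 0.023 TPM in morphants and 0.714, 0.768 and 0.681 TPM in GFP controls. At such levels the size of the change depends on the 1 added to each count. At cyp26a1 the ratio moved toward L, at 5.15, 4.67 and 4.31 in morphants and 1.91, 2.62 and 2.14 in GFP controls (2.49 ± 0.24, adjusted p = 0.0027), and upk2 and tiparp moved with it. upk2.S, too, was near the floor in morphants, at 0, 0.056 and 0.075 TPM. At ca14, a carbonic anhydrase, the ratio moved toward S and the L copy alone was called: ca14.L stood at 2.97, 1.45 and 2.88 TPM in morphants and 8.28, 7.50 and 8.95 TPM in GFP controls, whereas ca14.S stood at 4.09, 3.04 and 3.34 TPM in morphants and 1.27, 1.04 and 2.06 TPM in GFP controls (log2 difference 1.18, under the 1.5 of a call). Counting a call in either copy, 344 pairs had a higher copy, of which 47 had both, 154 L alone and 143 S alone, and 124 pairs had a lower copy, of which 24 had both, 57 L alone and 43 S alone. Among all genes, counted singly and not as pairs, 3.41% were higher and 1.45% lower. Where 1 copy alone was called, the ratio changed at only 7 of the higher and 16 of the lower pairs. A call in 1 copy alone therefore does not show a difference between copies. The number of changed pairs was 20 to 27 in fits without 1 library (20 without morphant replicate 1), and the pairs myod1, smad4 and clcf1 lost the call in most of them. Reads of near-identical copies can be split between them, so the level of each copy is less certain than their sum.

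The single libraries of collection E leaned the same way by exons. Of 343 exon entries called higher in G, 261 were higher in the E morphant than in its control, 60 lower and 22 equal, with a median log2 difference of 0.28. Of the 202 called lower, 170 were lower, 22 higher and 10 equal, with a median of −0.85. Over all 27602 exon entries 46.4% were higher and 47.7% lower. Directions in E were counted for exon entries only. The genes called by introns alone, 597 higher and 198 lower, were not checked this way. The E libraries have no replicate, so no test was made. Some genes went the other way, among them aplnr.S, at 1.27 TPM in the E morphant and 11.1 TPM in its control.

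Collection F tested related combinations on another day, each against its own GFP controls: morpholinos against pou5f3.2, pou5f3.3 and sox3 (triple morphants, 40 ng each) and against pou5f3.2 and pou5f3.3 (40 ng each with 40 ng GFP morpholino), with 120 ng GFP morpholino in the controls and 3 libraries per group. Triple morphants had 1066 genes higher (3.86%) and 781 lower (2.83%), and of these 438 and 322 were among those of G, which is 46.6% of G's higher genes and 41.1% of those in F, and 80.5% of G's lower genes and 41.2% of those in F. The pou5f3.2 and pou5f3.3 morphants had 619 higher (2.24%) and 446 lower (1.62%). Shared with G were 287 higher genes (30.5% of G's, 46.4% of F's) and 232 lower genes (58.0% of G's, 52.0% of F's). Of G's higher genes 3 were lower in triple morphants and 3 in pou5f3.2 and pou5f3.3 morphants. With cycloheximide in collection C, where pou5f3.3 and sox3 morpholinos (40 ng each) were set against 80 ng GFP morpholino in 2 libraries each, 11 genes (0.0399%) were higher and 599 (2.17%) lower. Of G's lower genes 103 (25.8%) were among those 599, and of G's higher genes 1 was among the 11 and 31 were among the 599. The median log2 difference over all introns was −0.35 in this comparison of collection C, against 0.51 in G. In F it was 0.26 for triple morphants and 0.33 for pou5f3.2 and pou5f3.3 morphants. Introns were not fitted on their own scale for C or F, and how far these medians shift the counts was not tested.

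The response in G was tested against the responses in F, as a difference of differences across all genes. It lay above that of triple morphants at 247 genes (0.895%) and below at 89 (0.322%). Introns called 192 of the 247 and exons 68. The median difference of these responses was 0.26 over all introns and −0.05 over all exons. Introns were not fitted on their own scale for the tests against F. Of the 247, 40 were among G's lower genes, 38 among its higher genes and 169 in neither. Against the pou5f3.2 and pou5f3.3 morphants the response in G lay above at 98 genes (0.355%), 85 of them by introns, and below at 58 (0.21%). Of the 58, 33 were among G's lower genes. hal.1.L was one of these: it stood at 0.904, 1.07 and 0.820 TPM in G morphants, and in collection F at 24.4 TPM in pou5f3.2 and pou5f3.3 morphants, 3.41 TPM in triple morphants and 97.8 TPM in GFP controls (means, n = 3). The log2 difference of responses was −3.46 ± 0.27 (adjusted p = 2.1e-13). stx19.L (−2.08 ± 0.29) and XB5961731.L (−2.82 ± 0.41) also lay below. At pdk4.S, a kinase of pyruvate metabolism, the response in G lay above both responses in F. pdk4.S stood at 4.1, 2.1 and 3.52 TPM in G morphants and 6.16, 4.65 and 6.88 TPM in G controls. In F it averaged 0.968 TPM in triple morphants and 10.5 TPM in GFP controls. The difference was 2.45 ± 0.36 from triple morphants (adjusted p = 7.9e-06) and 1.80 from pou5f3.2 and pou5f3.3 morphants. Collection and morpholino combination differ together in these tests, so their effects cannot be told apart.

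**Figure D5:**
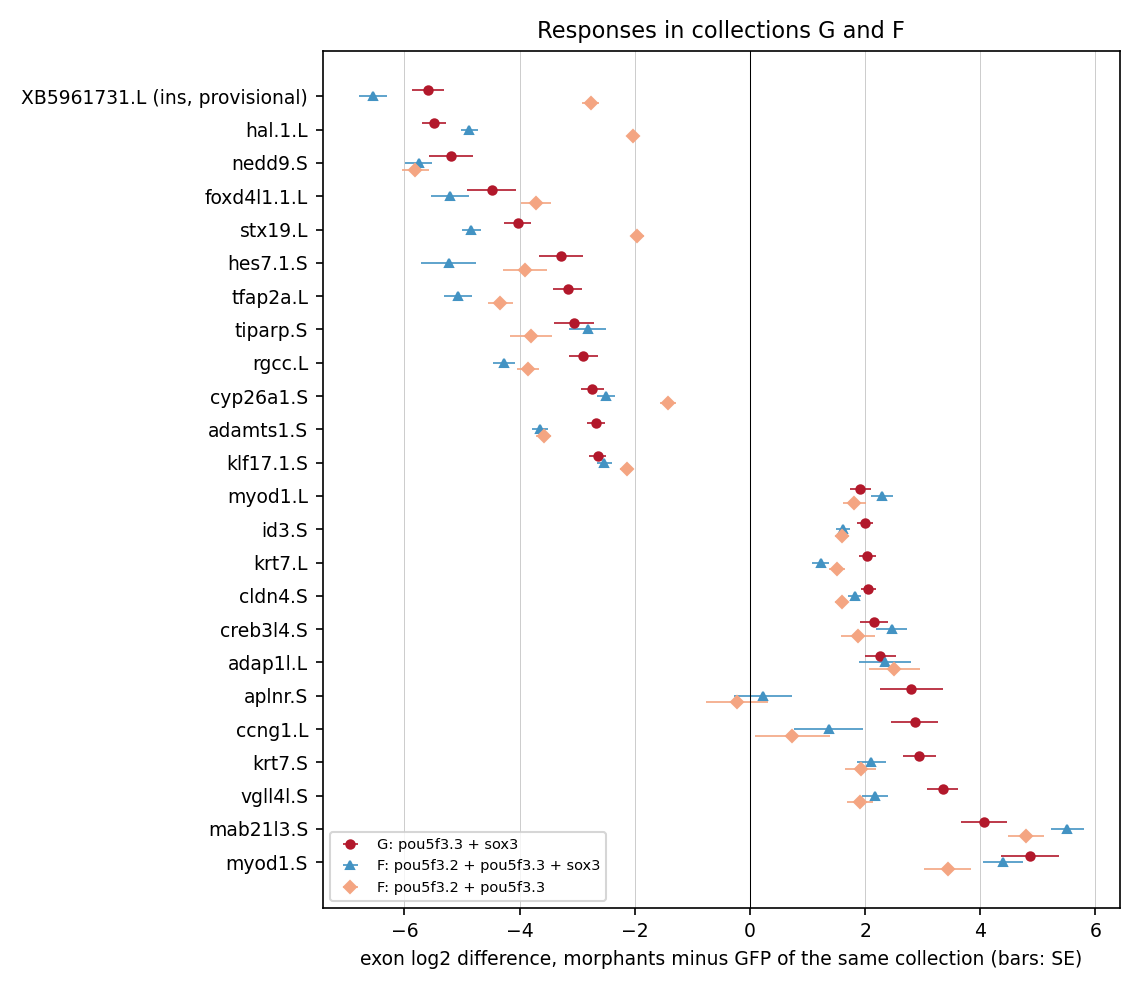
Exon log2 differences, morphants minus GFP controls of the same collection, with bars of 1 SE, for the genes of largest change in G. Red circles are pou5f3.3 and sox3 morphants of G, blue triangles the triple morphants and orange diamonds the pou5f3.2 and pou5f3.3 morphants of F; at hal.1.L the values are −5.48, −4.87 and −2.03, and at aplnr.S 2.80, 0.23 and −0.23.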

How the data were processed

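Exon counts and intron counts, TPM and RPKM per gene are the values the authors deposited. The authors aligned the read pairs with HISAT2 2.2.1 and counted them by strand with featureCounts 2.0.1 on the v9.2 genome, per the deposited notes; deposited TPM are exon counts scaled by length and depth, and deposited RPKM are intron counts scaled by intron length and by exon depth.

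Entries with at least 0.5 exon counts per 1e6 in a library (27602), or above 10 intron counts and 0.25 RPKM (9916), were kept. The 53 libraries outside collection H entered 1 fit of edgeR 4.0.16 (R 4.3.3; TMM, quasi-likelihood F-test), whose joint scale serves exons and introns. The SE given with an edgeR difference is the size of that log2 difference divided by the square root of its F, and is unreliable for differences near 0. Entries without a count in the 6 libraries (750 exon, 59 intron) carry a log2 difference of 0. L to S ratios, log2 of counts plus 1, were tested with limma 3.58.1 in pairs with a mean of at least 20 counts. DESeq2 1.42.0 was an alternative tool. Changes in collection E are log2 differences of counts per 1e6 plus 1. Depths are given with the report, and counts of 0 are read against a floor of 3 counts over the group, for counting error only. Fits were tested on simulated data.

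Named are the targets, the 12 largest exon and 8 largest intron differences in each direction (at least 5 TPM or 1 RPKM), the smallest p and highest level of each of 15 lists, the 5 largest differences of responses each way, and the 5 largest changes of ratio each way. Further list members that were called, and genes sharing their profile, were named after their values were seen. The libraries and lists were chosen with earlier results of these data known. All columns of the files belong to samples of the series. Coordinates and sequences are not printed. Some members of the lists that enter the counts are not reported here by name.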

Additional observations from a re-analysis of the deposited data

Results flagged for a closer look

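Each gene given here had a response in pou5f3.3 and sox3 morphants of collection G that differed, by a test of the difference itself over all genes (edgeR, adjusted p under 0.05), from that of a related morphant of collection F against its own GFP controls. In all, 336 genes differed from triple morphants and 156 from pou5f3.2 and pou5f3.3 morphants. Collection and morpholino combination cannot be told apart in either.

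Against triple morphants, genes whose response in G lay above were cbarp.L, a regulator of calcium channels (2.96 on the log2 scale), fth1.2.L, a ferritin heavy chain (3.45), pdk4.S (2.45), tox2.L, a high mobility group factor (3.77), and aplnr.S (2.57). cbarp.L was lower in both collections, by −2.79 in G and −5.75 in triple morphants, and fth1.2.L by −2.44 and −5.88. tox2.L stood at 7.1, 5.72 and 5.2 TPM in G morphants and 6.19, 6.76 and 4.91 TPM in G controls, whereas in F it averaged 0.0163 TPM in triple morphants and 0.331 TPM in GFP controls, so the collections differ in its level in both groups. The groups of G overlapped, and its 3.77 rests on the F averages under 1 TPM, where a few counts carry the value. Genes whose response in G lay below were syn1.L, synapsin (−2.15), timp-1.L, an inhibitor of metalloproteases (−1.52), and alkbh6.L, of the AlkB family (−1.63). timp-1.L stood at 3.25, 6.24 and 6.80 TPM in G morphants and overlapped with the G controls, at 8.66, 5.09 and 5.77 TPM, and averaged 20.4 TPM in triple morphants and 8.43 TPM in the GFP controls of F. Its difference from triple morphants did not pass with DESeq2, DESeq2's size factors or TMM from exons alone, nor without GFP replicate 1 (−1.25) or morphant replicate 1 (−1.29). That of fth1.2.L did not pass without morphant replicate 2 (2.69).

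Against pou5f3.2 and pou5f3.3 morphants, the response in G lay below at hal.1.L (−3.46), XB5961731.L (−2.82), stx19.L (−2.08), timp-1.L (−1.95) and syn1.L (−1.74), and above at aplnr.S (3.03), pdk4.S (1.80) and plk2.S, a Polo-like kinase (1.57). The syn1.L difference did not pass without morphant replicate 2 (−1.46), and that of plk2.S without GFP replicate 3, morphant replicate 1 or morphant replicate 3. The aplnr.S differences rest on morphant replicates 1 and 3 of G, and lost their call without either of them and without GFP replicate 1 or 2.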

How the results depend on the processing

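The 940 higher genes became 1847 with a log2 difference of at least 1, 3361 with the adjusted p alone, 541 with introns fitted alone and 1574 with no filter beyond 1 count, and the 400 lower genes became 2053 with the adjusted p alone. The cause was not tested, beyond the looser thresholds themselves. DESeq2 called 799 higher and 284 lower, and fits without 1 library 835 to 959 higher and 340 to 379 lower. Replicate numbers did not pair the libraries: deviations of same-numbered libraries correlated at 0.060, 0.016 and −0.100, and not every library correlated best with its own number. A replicate block gave 936 higher and 387 lower genes and 21 homeolog pairs in place of 40, with ca14, tiparp, myod1 and clcf1 no longer passing (adjusted p = 0.061, 0.059, 0.118 and 0.125). Without 1 library there were 20 to 27 such pairs. The difference in intron share was 1.32 percentage points over kept introns alone and 1.44 to 1.63 points without 1 library. The numbers of genes that differed from the responses in F (336 and 156) stayed within 1.5 times under every alternative run, while single differences at aplnr.S, timp-1.L, fth1.2.L, plk2.S and syn1.L lost their call in some. Introns on their own scale were not among the alternatives for those tests.

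Of 143 values of named genes and pairs, 21 lost their call in at least 1 alternative run. None of the called values changed sign, and the signs of uncalled values were not compared. tbxt.S and clcf1.S, both near the threshold, lost it in 9 and 10 settings and fgf20.L in 9. With introns fitted alone, cdk7.L, frzb.S, pcdh8.L, tubb4b.S, fgfr2.L and krt8.1.L no longer passed. Depth limits genes under about 1 TPM, where a few counts carry the value.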
